A study of Mus musculus with 46 samples.

Results

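Lung RNA of Nrf2 mutant mice kept in 100% oxygen for 48 h was compared with lung RNA of Nrf2 mutant mice kept in 100% oxygen for 24 h. The arrays were chosen by the genotype and time in their labels, and no measured value entered that choice. They number 12 of the 46 arrays of the study, 6 at 48 h and 6 at 24 h. Each time has 2 arrays, labelled 1a and 1b, on each of 3 oligonucleotide array types (A, B, C). The other arrays are mutant lung at 0 h and 72 h and wild type lung at 0, 24, 48 and 72 h of the same exposure. Of these, the 11 wild type arrays at 48 h and 24 h served to test whether the step between the times differed between the genotypes, and wild type at 24 h has 1 array of type A. The labels used here name the lesion only as a mutated Nrf2, and give no strain, age or sex. They do not state that 1a and 1b come from different animals. A p-value therefore covers the spread between arrays of the same group, which may be technical. That spread is pooled over all groups of an array type, including those not compared.

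The Nfe2l2 gene encodes Nrf2, which Keap1 holds back in unstressed cells. Once oxidants release it, Nrf2 activates genes for glutathione synthesis, detoxification and NADPH supply. Lung exposed to pure oxygen is a standard model of oxidant injury, in which endothelial and epithelial cells are damaged, plasma leaks into the airspace and neutrophils enter the tissue. In stressed lung cells, p53 arrests the cell cycle, ATF4 turns on amino acid supply, and heat shock factors turn on chaperones.

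A deposited value is the intensity of a probe set, on a linear scale. Differences are 48 h minus 24 h, in log2 of intensity plus a constant (78.1 on type A, 126 on B, 106 on C), ± SE from limma. Because of the constant, a difference understates the change of a dim probe set, and no fold is given where the lower side lies below the filter value of its type (195, 272 and 211). An adjusted p below 0.05 made a call, and a gene counts as called if any of its tested probe sets was. The lung identity of the samples was checked on Sftpc, the surfactant protein of alveolar type 2 cells. Its intensity was 17029 and 11874 at 48 h, against 21573 and 28541 at 24 h, far above the filter value on all 4 arrays. The mean correlation of an array with the others of its type was 0.895 to 0.938 at 48 h and 0.892 to 0.929 at 24 h, beside 0.879 to 0.94 for the 29 other arrays without mutant 0 h. The Gapdh 3' to 5' ratio, which climbs as RNA degrades, lay at 0.999 to 1.27 at 48 h, 0.945 to 1.54 at 24 h and 0.858 to 1.44 on those 29. On type A it was 1.18 and 1.04 at 48 h, against 1.24 and 1.54 at 24 h, so both arrays at 24 h were above both at 48 h, and 1 was above the 29. Its part in the results of type A was not tested. The number of arrays limits the precision of every value.

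The targeted gene was not called between the times. Nfe2l2 had an intensity of 388 and 404 at 48 h, against 424 and 303 at 24 h in mutant lung, with a difference of 0.12 ± 0.21 (limma, adjusted p = 0.863). Wild type lung had 3338 and 4488 at 48 h and 3425 on the single array at 24 h. Over all times, the 7 mutant arrays of type A lay between 303 and 448 and the 7 wild type arrays between 2428 and 4488, without overlap. Whether these probes cover the mutated stretch is not given in the sources used here.

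Between 24 h and 48 h, called falls in mutant lung included neutrophil, immunoglobulin and cardiac muscle genes, and called rises included p53 targets, ATF4 targets, heat shock proteins and matrix genes. Of 26833 tested probe sets, 173 were called (0.645%), 73 higher and 100 lower at 48 h, with 112 on array type A, 40 on B and 21 on C. At an unadjusted p below 0.05 there were 1788 higher and 1478 lower. Counted as genes, 58 of 13411 rose (0.432%) and 79 fell (0.589%). Of the 173, 140 differed by more than 2-fold and 42 had a side below the filter value. The same step in wild type lung gave 17 called probe sets (0.0634%), 10 higher and 7 lower, and 4 probe sets were called in both genotypes. The estimate of spread is shared by 8 groups. On type A, mutant 0 h and wild type 24 h have 1 array each and add nothing to it. The number called in the mutant depended on the arrays in the fit. It was 7 when only the 4 mutant arrays of a type were fitted, 12 without replicate 1a at 48 h, 21 without 1b at 48 h, 21 without 1a and 22 without 1b at 24 h, with 2437 to 2805 probe sets at an unadjusted p below 0.05 in these last 4 fits, and leaving out 1 replicate of wild type at 48 h gave 96 and 1 of wild type at 0 h gave 113.

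**Figure D1:**
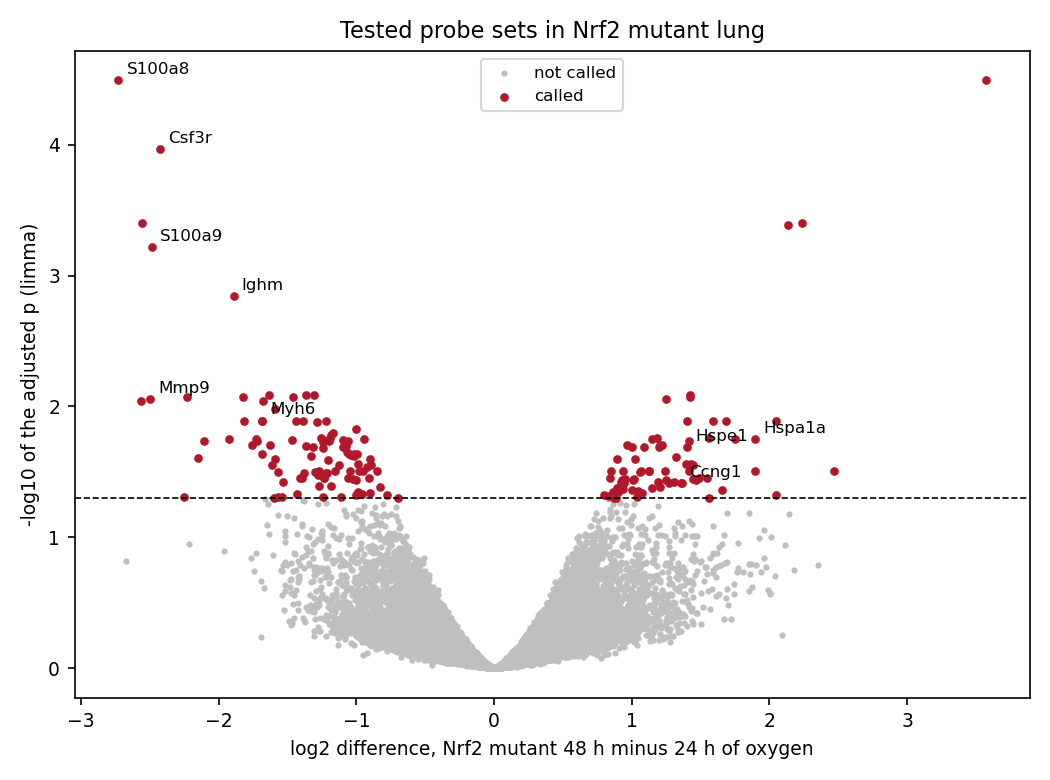
Each point is a tested probe set, with the log2 difference between mutant 48 h and mutant 24 h on the x axis and the -log10 of the limma adjusted p on the y axis, and the dashed line marks an adjusted p of 0.05. The 173 called probe sets are in red, and S100a8, Csf3r and S100a9 lie highest on the falling side.

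Neutrophil genes gave the largest falls. S100a8 and S100a9 encode the 2 chains of calprotectin, which fills the neutrophil cytosol. S100a8 had an intensity of 1635 and 1561 at 48 h, against 11887 and 10277 at 24 h. The groups were far apart, with means of 1598 ± 52.1 and 11082 ± 1138 (SD, n = 2 each), and the difference was -2.73 ± 0.15 (limma, adjusted p = 3.2e-05), or 6.64-fold lower. S100a9 had 949 and 701 at 48 h, against 4720 and 5164 at 24 h, and fell by 2.49 ± 0.20 on the log2 scale (limma, adjusted p = 0.000609). Csf3r, the receptor for the growth factor G-CSF that drives neutrophil production, fell on 2 of its 3 probe sets. On one of them it had 363 and 445 at 48 h, against 2386 and 2630 at 24 h, with a difference of -2.43 ± 0.15 (limma, adjusted p = 0.000108). The third, its brightest, gave -0.09 (limma, adjusted p = 0.899), so the 3 probe sets of Csf3r disagree.

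The granule and surface proteins of neutrophils moved the same way. Mmp9, the gelatinase of neutrophil granules, had 428 and 169 at 48 h, against 1955 and 1886 at 24 h on 1 of 2 probe sets, and fell by 2.50 ± 0.30 on the log2 scale (limma, adjusted p = 0.00882). Mmp8, the neutrophil collagenase, had 114 and 58.9 at 48 h, below the filter value, against 585 and 709 at 24 h (limma, adjusted p = 0.0249). Both arrays at 48 h were low for each of these proteases and no array overlapped between the times. The same lack of overlap held for all 173 called probe sets and for 12198 of the 26833 tested. Cxcr2, the receptor for the CXC chemokines that attract neutrophils, had 56.0 and 136 at 48 h, against 549 and 351 at 24 h (limma, adjusted p = 0.0281). Clec4d, a myeloid lectin receptor, had 141 and 135 at 48 h, against 755 and 618 at 24 h (limma, adjusted p = 0.0128). Il1r2, a decoy receptor that binds interleukin 1, had 198 and 209 at 48 h, against 845 and 752 at 24 h on 1 of 2 probe sets, and fell by 1.63 ± 0.18 on the log2 scale (limma, adjusted p = 0.00811). Cd177, a glycoprotein of the neutrophil surface, had 1061 and 1007 at 48 h, against 2771 and 2535 at 24 h on array type C, with a difference of -1.27 (limma, adjusted p = 0.0404).

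Across the neutrophil markers, 9 of 14 tested genes fell and 0 rose, against 0.589% of all tested genes with a called fall. By the brightest probe set of each gene, 8 of 14 were lower at an unadjusted p below 0.05, against 6.53% of all genes, and the median difference was -1.42, against 0.0069 over all genes. Other granule genes did not pass the test. Ltf, the lactoferrin of secondary granules, had 1233 and 1538 at 48 h, against 1855 and 1800 at 24 h (limma, adjusted p = 0.504). Camp, a cathelicidin antimicrobial peptide, had 631 and 532 at 48 h, against 708 and 704 at 24 h (limma, adjusted p = 0.642). Lcn2, lipocalin 2, which epithelium also makes, had 4904 and 5148 at 48 h, against 3617 and 4825 at 24 h (limma, adjusted p = 0.713). In bulk tissue, fewer neutrophils and less RNA per neutrophil cannot be told apart. Fitted on the compared arrays alone 3 markers were called, and without 1 mutant replicate 3 to 4 were: 4 without either at 48 h, 3 without 1a and 4 without 1b at 24 h. The probe sets of S100a8, S100a9 and Csf3r, 4 in all, were called in each of these fits.

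The intensities of the 13 markers on array type A, summed over the brightest probe set of each gene, were followed over the time course. The sum is of linear intensities, so it is weighted toward bright markers such as S100a8 and S100a9. In the mutant the sum was 17150 at 0 h (1 array), 29600 and 29210 at 24 h, 12480 and 12360 at 48 h, and 12880 and 16260 at 72 h. In wild type it was 13790 and 14410 at 0 h, 14930 at 24 h (1 array), 26210 and 25960 at 48 h, and 27800 and 28310 at 72 h. The mutant sum was thus highest at 24 h, and the wild type sum was highest at 48 h and 72 h. S100a8 and S100a9 made up most of the mutant fall and of the wild type rise between 24 h and 48 h. In the mutant their means went from 11082 to 1598 and from 4942 to 825. In wild type they went from 4565 (1 array) to 9735 and from 2114 (1 array) to 4462. With each of the 14 tested genes counted once, the median difference was -1.42 in the mutant, with 12 below 0. It was 0.92 in wild type, with 13 above 0. The mutant array at 0 h had a mean correlation of 0.856 with the others of type A, below that of any array at 24 h or 48 h.

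**Figure D2:**
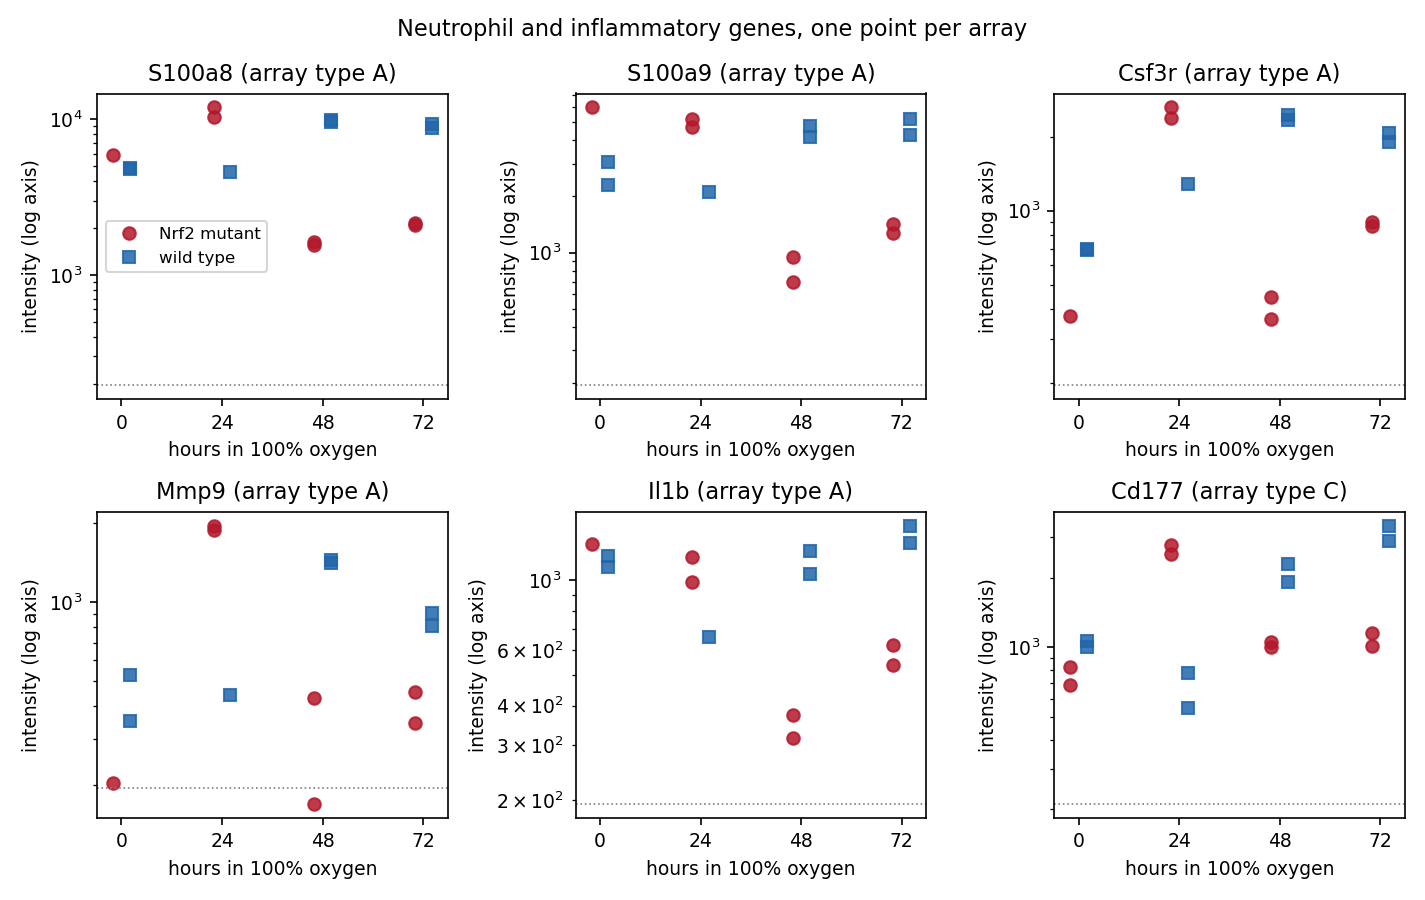
Intensity on a log axis against hours in 100% oxygen for 6 genes, with 1 point per array, mutant as red circles set left of wild type as blue squares, and the filter value as a dotted line. The mutant points are lower at 48 h than at 24 h in each panel, while the wild type points at 48 h lie above those at 24 h.

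Inflammatory genes outside the neutrophil list fell in part. Il1b, the precursor of interleukin 1 beta, had 316 and 375 at 48 h, against 1185 and 992 at 24 h, and fell by 1.46 ± 0.17 on the log2 scale (limma, adjusted p = 0.0085). Cd14, the lipopolysaccharide co-receptor of monocytes and macrophages, had 3098 and 2705 at 48 h, against 5550 and 5583 at 24 h, with a difference of -0.92 ± 0.15 (limma, adjusted p = 0.0289). They were the only called members of their lists: 1 of 18 cytokines, chemokines and adhesion genes fell, and 1 of 14 macrophage markers. Of all genes, 0.589% fell. Most macrophage markers did not pass, among them Cd68, a lysosomal glycoprotein, with 2155 and 2531 at 48 h against 2112 and 2048 at 24 h (limma, adjusted p = 0.741), and the complement chain C1qa, with 2211 and 2320 against 2524 and 2493 (limma, adjusted p = 0.775). By brightest probe set, 5 of the 14 macrophage markers were lower and 0 higher at an unadjusted p below 0.05. Of all genes, 6.53% were lower and 7.46% higher. Cd68 was among the 3 markers above 0, while 11 lay below 0, and the median was -0.18. The macrophage marker sum on array type A was 32400 and 32930 at 48 h, against 35850 and 37380 at 24 h. Chemokines made by injured tissue lay on the other side of 0 without passing the test. Ccl2, which attracts monocytes, had 716 and 865 at 48 h, against 508 and 433 at 24 h (limma, adjusted p = 0.19), and Cxcl1, which attracts neutrophils, had 1067 and 934 at 48 h, against 675 and 624 at 24 h (limma, adjusted p = 0.23). By brightest probe set, 5 of the 18 cytokine genes were higher and 4 lower at an unadjusted p below 0.05, where 7.46% and 6.53% of all genes were, and the median was 0.40.

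Immediate early genes, which answer a stimulus within minutes, included 2 falls among 18 tested genes and 0 rises, where 0.589% of all genes fell. By brightest probe set, 3 of the 18 were higher and 2 lower at an unadjusted p below 0.05, where 7.46% and 6.53% of all genes were. Nr4a1, an orphan nuclear receptor, had 1403 and 2156 at 48 h, against 5150 and 4304 at 24 h on 1 of 2 probe sets, and fell there by 1.40 ± 0.24 on the log2 scale (limma, adjusted p = 0.0352). The other Nr4a1 probe set lay on the opposite side, at 0.31 (limma, adjusted p = 0.827). Fosl2, a member of the AP-1 family, had 5118 and 5154 at 48 h, against 10408 and 9049 at 24 h on 1 of 3 probe sets, with a difference of -0.90 ± 0.16 (limma, adjusted p = 0.0253). The best known members did not pass the test. Fos had 3924 and 3699 at 48 h, against 4617 and 4265 at 24 h, and Egr1 had 1806 and 2151 at 48 h, against 1771 and 2283 at 24 h.

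Some genes of antibody-secreting cells fell. Ighm, the heavy chain of immunoglobulin M, had 2002 and 1741 at 48 h, against 7175 and 7118 at 24 h on 1 of 6 probe sets, and fell there by 1.89 ± 0.17 on the log2 scale (limma, adjusted p = 0.00144). Jchain, which joins secreted immunoglobulin M and A into polymers, had 695 and 829 at 48 h, against 2102 and 1844 at 24 h, with a difference of -1.29 ± 0.17 (limma, adjusted p = 0.0132). These 2 were the called members among 7 tested B cell markers, where 0.589% of all genes fell, and without 1 mutant replicate Ighm was called in 4 of 4 fits and Jchain in 0. Cd79b and Ms4a1, surface proteins of B cells that plasma cells lack, did not pass: Cd79b had 1222 and 1092 at 48 h, against 905 and 820 at 24 h (limma, adjusted p = 0.435), and Ms4a1 had 1081 and 1744, against 1205 and 1118 (limma, adjusted p = 0.747). The B cell marker sum on array type A was 8302 and 8148 in mutant lung at 48 h, against 10890 and 11110 at 24 h, and 6334 and 6900 in wild type at 48 h, against 9860 at 24 h. The list median was -0.32 in the mutant and -0.64 in wild type, where all 7 were below 0. Immunoglobulin genes are a family of near copies whose probe sets can share transcripts, so no single variable gene can be told from its relatives here.

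Some contractile genes of heart muscle, which in the mouse also lines the pulmonary veins, were lower at 48 h. Myh6, the atrial myosin heavy chain, had 579 and 846 at 48 h, against 2313 and 2560 at 24 h, and fell by 1.69 ± 0.22 on the log2 scale (limma, adjusted p = 0.0128). Tnnt2, cardiac troponin T, had 554 and 449 at 48 h, against 1137 and 1140 at 24 h, with a difference of -1.08 ± 0.16 (limma, adjusted p = 0.0199). Actc1, cardiac actin, fell on 1 of 2 probe sets, with 2779 and 2515 at 48 h, against 5535 and 5059 at 24 h (limma, adjusted p = 0.0309). With these, 3 of 8 tested cardiac genes fell and 0 rose, where 0.589% of all genes fell, and the median was -0.70 in the mutant and -0.67 in wild type. Without 1 mutant replicate, Myh6 was called in 1 of 4 fits (that without 1b at 48 h), and Tnnt2 and Actc1 in 0. The cardiac sum on array type A was 11210 and 13020 in mutant lung at 48 h, against 20390 and 22160 at 24 h, and 12750 and 13090 in wild type lung at 48 h, against 22360 at 24 h. No cardiac member was called as different between the genotypes in this step. Acta1, skeletal muscle actin, had 177 and 342 at 48 h, against 868 and 725 at 24 h, and fell by 1.41 ± 0.25 on the log2 scale (limma, adjusted p = 0.0352). Myh11, the myosin heavy chain of smooth muscle, had 1233 and 1054 at 48 h, against 2069 and 2357 at 24 h on 1 of 2 probe sets, with a difference there of -0.91 ± 0.16 (limma, adjusted p = 0.0353), and was the only one of 8 smooth muscle markers called. Its other probe set lay on the opposite side, at 0.26 (limma, adjusted p = 0.595). Whether the amount of venous, cardiac or bronchial muscle in the sampled tissue differed was not tested.

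Several targets of p53 rose. Cdkn1a, the p21 inhibitor of cyclin-dependent kinases, had 5890 and 3828 at 48 h, against 2133 and 2302 at 24 h on 1 of 2 probe sets, and was higher by 1.07 ± 0.20 (limma, adjusted p = 0.046). Ccng1, cyclin G1, which feeds back on Mdm2 and p53, had 2072 and 2243 at 48 h, against 1023 and 610 at 24 h, and was higher by 1.36 ± 0.24 (limma, adjusted p = 0.0387). Both arrays at 48 h lay above both at 24 h for each gene. A lack of overlap between the times held for all 173 called probe sets and for 12198 of the 26833 tested. Gadd45a, a stress sensor of the growth arrest and DNA damage family, had 2375 and 1726 at 48 h, against 940 and 839 at 24 h, a difference of 1.12 ± 0.19 (limma, adjusted p = 0.0312). Zmat3, an RNA-binding zinc finger protein, had 2241 and 2118 at 48 h, against 1065 and 826 at 24 h on 1 of 2 probe sets, a difference of 1.15 ± 0.21 (limma, adjusted p = 0.042). These were the 4 rises among 16 tested members, against 0.432% of all genes with a called rise, and 0 members fell. Phlda3, a repressor of Akt, had 3508 and 3063 at 48 h, against 1783 and 1513 at 24 h and missed the threshold (limma, adjusted p = 0.0955). By brightest probe set, 7 of 16 were higher and 0 lower at an unadjusted p below 0.05, where 7.46% and 6.53% of all genes were. The median was 0.67 in the mutant and 0.25 in wild type.

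The p53 calls depended on the arrays in the fit and on the processing. On the compared arrays alone 0 were called, and 0 to 1 were called without 1 mutant replicate at 48 h or 24 h (1 without 1b at 48 h), 0 without either wild type 48 h replicate, 1 without either mutant 72 h replicate, 2 without either wild type replicate at 0 h or 72 h, and 1 with a floor in place of the added constant or with no filter on dim probe sets. In the further course of the mutant, Cdkn1a had 417 at 0 h (1 array) and 7206 and 7083 at 72 h, and Gadd45a had 847 at 0 h and 6527 and 5970 at 72 h. Ccng1 stood at 2675 at 0 h and at 1787 and 2015 at 72 h, so that its lowest mutant values were those at 24 h.

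Several genes of the ATF4 and CHOP amino acid response rose. Atf4, the transcription factor itself, had 7166 and 7665 at 48 h, against 4101 and 4043 at 24 h, and was higher by 0.85 ± 0.14 (limma, adjusted p = 0.031). Trib3, a pseudokinase that restrains ATF4 and Akt, had 721 and 718 at 48 h, against 297 and 313 at 24 h, a difference of 1.06 ± 0.18 (limma, adjusted p = 0.0314). The replicates agreed closely at each time. Chac1, an enzyme that cleaves glutathione, had 3958 and 3551 at 48 h, against 1912 and 2017 at 24 h on array type B, a difference of 0.89 ± 0.15 (limma, adjusted p = 0.025). Mthfd2, a mitochondrial enzyme of folate metabolism, had 3073 and 2619 at 48 h, against 1540 and 1443 at 24 h (limma, adjusted p = 0.0422). Psat1, which makes phosphoserine on the way to serine, had 1077 and 1011 at 48 h, against 443 and 490 at 24 h (limma, adjusted p = 0.0439).

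That is 5 of 19 tested members called higher and 0 lower, where 0.432% of all genes rose. By brightest probe set, 11 were higher and 0 lower at an unadjusted p below 0.05, where 7.46% of all genes were higher, and the median was 0.51 in the mutant and 0.32 in wild type. Ddit3, which encodes CHOP, did not pass, with 983 and 1212 at 48 h, against 813 and 805 at 24 h (limma, adjusted p = 0.422). Slc7a11, the cystine importer that NRF2 and ATF4 both regulate, had 195 and 316 at 48 h, against 329 and 233 at 24 h, and its arrays overlapped. The endoplasmic reticulum chaperones, also part of the unfolded protein response, had 0 called members of 14. Hspa5, the chaperone BiP, had 6548 and 7080 at 48 h, against 3820 and 3914 at 24 h (limma, adjusted p = 0.134), and Creld2 had 905 and 1006, against 660 and 565 (limma, adjusted p = 0.189). Of those 14 chaperones, 3 were higher at an unadjusted p below 0.05, where 7.46% of all genes were. For the ATF4 list, 0 members were called on the compared arrays alone and 0 without any 1 mutant replicate of either time, 1 without either wild type 48 h replicate, 2 without either wild type 0 h replicate, and 3 with a floor or with no filter.

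Some heat shock genes were higher at 48 h. Hspa1a, the inducible HSP70, had 4694 and 4434 at 48 h, against 1348 and 974 at 24 h on array type C, and was higher by 1.90 ± 0.29 (limma, adjusted p = 0.0179). On array type A its other, brighter probe set had 21573 and 16598 at 48 h, against 8978 and 9495 at 24 h, a difference of 1.03 that was not called (limma, adjusted p = 0.118). Hspa1b, a near-identical copy of Hspa1a whose transcripts these probe sets may share, had 13179 and 12371 at 48 h, against 7374 and 7385 at 24 h (limma, adjusted p = 0.093). Hspe1, the mitochondrial chaperonin HSP10, had 4434 and 5245 at 48 h, against 1820 and 1741 at 24 h, and was higher by 1.40 ± 0.21 (limma, adjusted p = 0.0203). Hsph1, an HSP110 exchange factor of HSP70, had 8350 and 8067 at 48 h, against 4634 and 3515 at 24 h, a difference of 1.01 ± 0.18 (limma, adjusted p = 0.0361). Its level at 72 h was 1896 and 1824. Of 14 tested members 3 rose and 0 fell, where 0.432% of all genes rose. By brightest probe set, 9 were higher at an unadjusted p below 0.05, where 7.46% of all genes were, and the median was 0.43 in the mutant and 0.18 in wild type. On the compared arrays alone and without any 1 mutant replicate of either time 0 were called, and without 1 replicate of wild type at 0, 48 or 72 h or of the mutant at 72 h, or with a floor, 2 were.

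The promoters of the called heat shock and ATF4 members, other than Psat1, were searched for the letters that bind the factors of these 2 responses, and those with a match are printed because the genes moved together. The heat shock search used GAANNTTC and the ATF4 search TGATGNAA, on both strands of the 250 bases before each RefSeq transcript start on the GRCm38.p6 build. Some genes have more than 1 promoter window. GAANNTTC was in 2199 of 32851 windows (6.69%) and in 6 of the 16 windows of tested heat shock members. By gene, that was 6 of the 11 members with a promoter in the table. TGATGNAA was in 1134 windows (3.45%) and in 8 of the 20 windows of ATF4 list members, or 8 of 18 members by gene. Among called genes, Hspa1a (chr17:34972157-34972406, minus strand) and Hspe1 (chr1:55087898-55088147, plus strand) held 1 heat shock match each and Hsph1 held 0. Chac1 (chr2:119350992-119351241, plus strand) held 1 ATF4 match, on the opposite strand, and Atf4, Trib3 and Mthfd2 held 0. The match is in capitals, and each sequence runs 5′ to 3′ on the strand of its gene and ends at the base before the start. A match describes letters and is not a site shown to be bound.
Hspa1a: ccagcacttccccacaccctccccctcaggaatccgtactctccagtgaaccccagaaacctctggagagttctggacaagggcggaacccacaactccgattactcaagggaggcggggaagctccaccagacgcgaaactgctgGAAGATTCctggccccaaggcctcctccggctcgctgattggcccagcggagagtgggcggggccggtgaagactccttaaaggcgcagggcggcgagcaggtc
Hspe1: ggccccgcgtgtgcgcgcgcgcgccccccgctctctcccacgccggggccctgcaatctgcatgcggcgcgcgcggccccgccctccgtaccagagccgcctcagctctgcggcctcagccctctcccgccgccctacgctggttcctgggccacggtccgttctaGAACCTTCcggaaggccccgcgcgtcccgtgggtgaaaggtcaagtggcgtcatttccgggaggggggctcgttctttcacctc
Chac1: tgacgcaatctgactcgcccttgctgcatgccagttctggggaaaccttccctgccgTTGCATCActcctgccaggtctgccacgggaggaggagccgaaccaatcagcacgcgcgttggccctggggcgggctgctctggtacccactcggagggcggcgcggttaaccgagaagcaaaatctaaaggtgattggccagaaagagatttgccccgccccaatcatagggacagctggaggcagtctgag

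**Figure D3:**
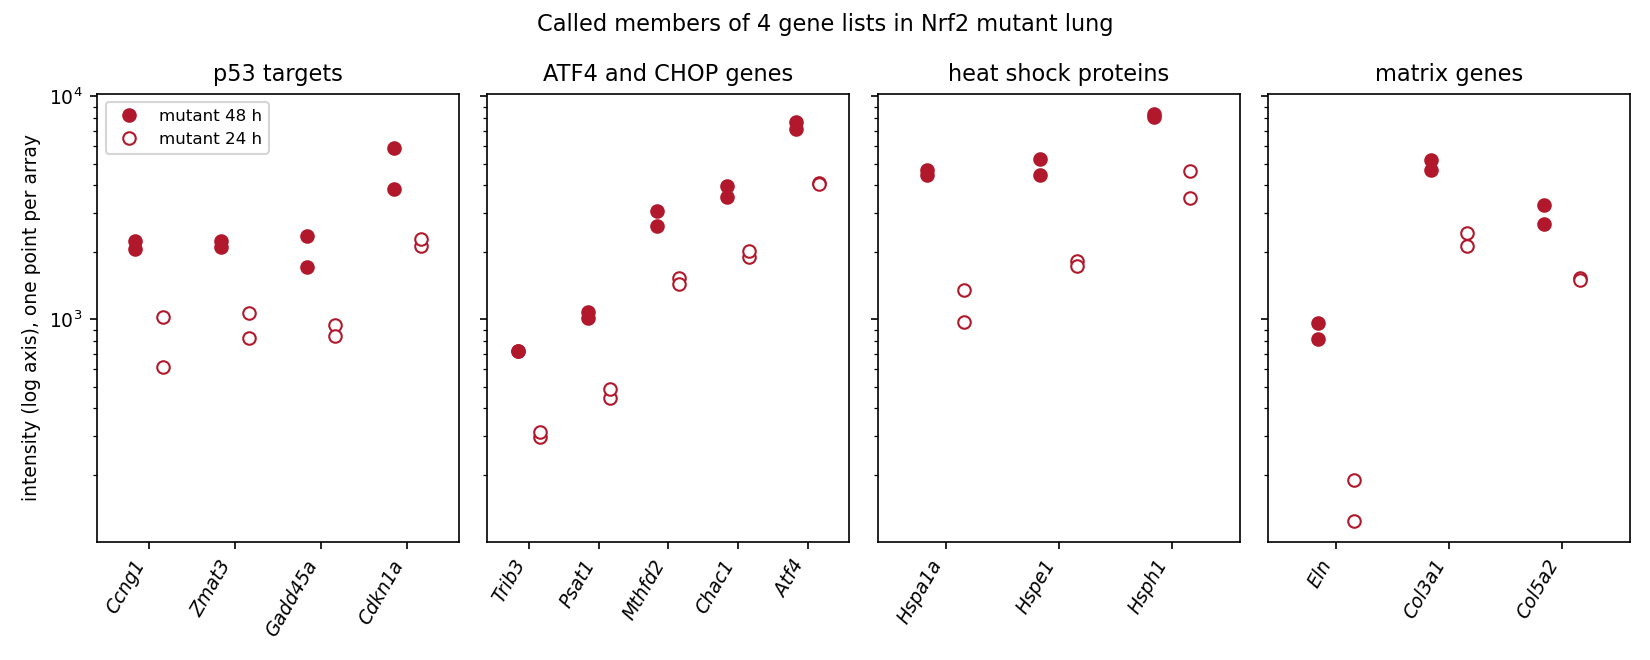
Intensity on a log axis for the called members of the p53, ATF4 and CHOP, heat shock and matrix lists, 1 point per array, with mutant 48 h as filled and mutant 24 h as open circles to its right, and for each gene its called probe set of smallest p. The points at 48 h lie above those at 24 h for all 15 genes. A lack of overlap between the times held for all 173 called probe sets and for 12198 of the 26833 tested. The Eln probe set shown is below the filter value of 195 at 24 h.

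Some genes of the extracellular matrix were higher at 48 h. Col3a1, the fibrillar collagen III of soft tissue, had 5188 and 4677 at 48 h, against 2128 and 2436 at 24 h, and was higher by 1.09 ± 0.16 (limma, adjusted p = 0.0203), with 2 of its 3 probe sets called. Col5a2, a chain of collagen V that starts fibrils, had 3273 and 2677 at 48 h, against 1540 and 1506 at 24 h on 1 of 3 probe sets, a difference of 0.92 ± 0.16 (limma, adjusted p = 0.0376). Eln, elastin, had 816 and 961 at 48 h on the called probe set, against 124 and 191 at 24 h, which lie below the filter value (limma, adjusted p = 0.0128). Its brighter probe set had 19659 and 12546 at 48 h, against 5329 and 6371 at 24 h, a difference of 1.42 (limma, adjusted p = 0.0752). In all, 3 of 20 tested matrix genes rose and 0 fell, where 0.432% of all genes rose. By brightest probe set, 10 were higher and 0 lower at an unadjusted p below 0.05, where 7.46% of all genes were higher, and the median was 0.39 in the mutant and -0.34 in wild type. Of the 20, 17 were above 0 in the mutant and 4 in wild type. Col1a1, collagen I, did not pass, with 7054 and 6719 at 48 h, against 4516 and 5580 at 24 h in mutant lung (limma, adjusted p = 0.337). On the compared arrays alone and without any 1 mutant replicate of either time 0 members were called, and with a floor or without 1 replicate of wild type at 0 or 48 h or of the mutant at 72 h 2 were. Signals that act on matrix cells had 0 calls among 20 genes, and Ccn2, connective tissue growth factor, had 5552 and 6278 at 48 h, against 3832 and 3516 at 24 h (limma, adjusted p = 0.134). The matrix proteases and inhibitors had Mmp9 and Mmp8 as the 2 falls among 14, where 0.589% of all genes fell, and 0 rises.

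The other large rises belonged to varied functions. Ier5l, related to immediate early response gene 5, had 8599 and 8791 at 48 h, against 2325 and 2981 at 24 h on 1 of 2 probe sets, and was higher by 1.68 ± 0.24 (limma, adjusted p = 0.0128). Tcim, a small regulator of Wnt signalling, had 14500 and 19804 at 48 h, against 6023 and 5918 at 24 h, and was called on 2 of 2 probe sets. Igf1, insulin-like growth factor 1, had 4265 and 4823 at 48 h, against 1416 and 1839 at 24 h on 1 of 4 probe sets, a difference of 1.42 ± 0.18 (limma, adjusted p = 0.0085). Its 3 other probe sets were not called, with the lowest at -0.25. Rps19, a protein of the small ribosomal subunit, had 13458 and 12300 at 48 h, against 4952 and 4547 at 24 h, a difference of 1.42 ± 0.16 (limma, adjusted p = 0.00811). Sdhb, the iron-sulfur subunit of succinate dehydrogenase, had 2576 and 2275 at 48 h, against 778 and 884 at 24 h on 1 of 2 probe sets. Fbp2, a fructose bisphosphatase best known from muscle, had 967 and 1105 at 48 h, against 222 and 396 at 24 h, a difference of 1.56 ± 0.22 (limma, adjusted p = 0.0173). Kif5b, the heavy chain of kinesin 1, had 1077 and 1521 at 48 h, against 471 and 364 at 24 h on 1 of 4 probe sets, and the 3 others reached down to -0.01. Trmo, a tRNA methyltransferase, had 1461 and 1357 at 48 h, against 447 and 239 at 24 h on 1 of 2 probe sets.

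The transcripts 1700012P22Rik, with 1765 and 1810 at 48 h against 262 and 211 at 24 h on 1 of 2 probe sets, and 1700061N14Rik, with 303 and 551 against 19.3 and 49.4, also rose, the second with its 24 h arrays below the filter value. So did Commd1, Cars and Gmppb, with 24 h means of 23.3, 76.4 and 58.5, all below the filter value, and 48 h means of 229, 346 and 291. Edn1, endothelin 1, a constrictor of vessels that is also a target of hypoxia-inducible factors, had 2238 and 2196 at 48 h, against 1072 and 1060 at 24 h on 1 of 2 probe sets, or 2.01-fold more (limma, adjusted p = 0.0203). It was the only rise among 17 targets of these factors, where 0.432% of all genes rose. Sox17, a transcription factor of endothelium, had 3978 and 3507 at 48 h, against 1950 and 1875 at 24 h on 1 of 3 probe sets, a difference of 0.94 ± 0.16 (limma, adjusted p = 0.0309). It was the only called gene among 17 endothelial markers, whose sum on array type A was 70480 and 63280 at 48 h, against 75880 and 92310 at 24 h. Eng, a TGF-beta co-receptor of endothelium, had 16855 and 12789 at 48 h, against 22191 and 31029 at 24 h and was not called (limma, adjusted p = 0.134).

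Among the other falls, Ak7, an adenylate kinase of cilia, had 311 and 208 at 48 h, against 1286 and 1641 at 24 h on 1 of 2 probe sets, a difference of -2.11 ± 0.33 (limma, adjusted p = 0.0184). The ciliated cell markers had 0 calls among 6. Pxt1 had 1694 and 970 at 48 h, against 6063 and 6786 at 24 h, and fell by 2.23 ± 0.29 on the log2 scale (limma, adjusted p = 0.0085). Egfr, the epidermal growth factor receptor, fell on 1 of 4 probe sets, with 69.9 and 54.6 at 48 h, below the filter value, against 413 and 489 at 24 h. Ccdc157, Rdh12, Ighg3 and Igh-VS107 also ended below the filter value at 48 h, with means of 92.5, 41.7, 64.0 and 18.1, against 617, 442, 443 and 232 at 24 h. Hp, haptoglobin, which binds free haemoglobin, had 10975 and 11997 at 48 h, against 21862 and 24018 at 24 h on 1 of 2 probe sets, a difference of -0.99 ± 0.15 (limma, adjusted p = 0.023). It was the only fall among 14 metallothionein and acute phase genes, where 0.589% of all genes fell. Mt1 had 5050 and 6337 at 48 h, against 3767 and 4519 at 24 h (limma, adjusted p = 0.493).

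The NRF2 targets, read here in animals whose Nrf2 is mutated, gave 1 fall and 0 rises among 30 tested genes. Of all genes, 0.589% fell and 0.432% rose. Gsta2, a glutathione transferase, had 384 and 370 at 48 h, against 993 and 949 at 24 h, and fell by 1.21 ± 0.19 on the log2 scale (limma, adjusted p = 0.0255). In wild type lung it had 1273 and 1569 at 48 h, against 1311 on the single array at 24 h, and the difference between the genotypes in the step was -1.31 (limma, adjusted p = 0.162). Nqo1, a quinone reductase, stayed below the filter value with 54.9 and 108 at 48 h, against 92.6 and 64.3 at 24 h. Gpx2, a glutathione peroxidase of epithelium, had 555 and 525 at 48 h, against 570 and 510 at 24 h, a difference of 0.00 ± 0.18 (limma, adjusted p = 0.999). Gclc, the catalytic subunit that limits glutathione synthesis, had 1504 and 1651 at 48 h, against 1024 and 1312 at 24 h (limma, adjusted p = 0.417). Hmox1, heme oxygenase 1, had 4319 and 3152 at 48 h, against 3463 and 3882 at 24 h, with overlapping arrays. The median over the list was -0.02 in the mutant and 0.06 in wild type. At an unadjusted p below 0.05, 1 gene was higher and 4 lower, where 7.46% and 6.53% of all genes were.

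Clock genes included 1 fall among 17, where 0.589% of all genes fell. Per3, a period gene of the circadian oscillator, had 1179 and 992 at 48 h, against 2559 and 2361 at 24 h on 1 of 3 probe sets, and fell by 1.10 ± 0.18 on the log2 scale (limma, adjusted p = 0.0203). Per1 had 1441 and 1686 at 48 h, against 2478 and 2914 at 24 h and was not called (limma, adjusted p = 0.096). Arntl, which encodes the partner of CLOCK, had 522 and 415 at 48 h, against 250 and 371 at 24 h (limma, adjusted p = 0.377). The labels used here give no clock time of tissue collection.

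Several processes had no called member, where 0.432% of all genes rose and 0.589% fell. Among 26 cell cycle genes 1 was higher and 2 lower at an unadjusted p below 0.05, where 7.46% and 6.53% of all genes were. Pcna, the sliding clamp of DNA polymerases, had 1740 and 2279 at 48 h, against 958 and 1176 at 24 h (limma, adjusted p = 0.157), and Mcm3, of the replicative helicase, had 661 and 564, against 1086 and 932 (limma, adjusted p = 0.338). The interferon list had 0 calls among 17, the glucocorticoid list 0 among 14, sterol and fatty acid synthesis 0 among 19, and coagulation and fibrinolysis 0 among 12. At an unadjusted p below 0.05, these 4 lists had, in that order, 0, 1, 2 and 1 genes higher and 1, 4, 2 and 2 lower. F3, tissue factor, which starts coagulation, had 1945 and 2525 at 48 h, against 1143 and 1199 at 24 h (limma, adjusted p = 0.178).

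Epithelial markers were not called, though all tested markers of alveolar type 2 and club cells lay below 0. All 10 tested type 2 markers had a difference below 0, with a median of -0.31. At an unadjusted p below 0.05, 3 of them were lower, where 6.53% of all genes were. In wild type the median was -0.22, with 1 of 10 above 0. Sftpb, surfactant protein B, had 17539 and 9117 at 48 h, against 19920 and 26618 at 24 h (limma, adjusted p = 0.286), and Sftpc, given above, differed by -0.80 ± 0.28 (limma, adjusted p = 0.279). The type 2 sum on array type A was 78820 and 60130 at 48 h, against 86700 and 104100 at 24 h. Type 1 markers had a median of 0.23 with 2 of 10 higher at an unadjusted p below 0.05, where 7.46% of all genes were. Their sum was 52130 and 43890 at 48 h, against 42320 and 47340 at 24 h. All 7 tested club markers were below 0, with a median of -0.34, as were 5 of 6 ciliated markers, with -0.32. For club cells, Scgb1a1, their main secreted protein, had 30470 and 20624 at 48 h, against 26924 and 37425 at 24 h (limma, adjusted p = 0.639), and Cyp2f2, a cytochrome P450, had 8136 and 7620, against 13022 and 13085 (limma, adjusted p = 0.146). T and NK markers had 0 calls among 10, and all 10 were below 0, with a median of -0.30. Their sum was 2393 and 2509 at 48 h, against 3229 and 4166 at 24 h. Erythroid RNA varied between partners, with sums of 11390 and 20500 at 48 h, against 12400 and 33550 at 24 h. No marker list was at 0 on any array, and the part of these cell types in the other results was not tested.

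**Figure D4:**
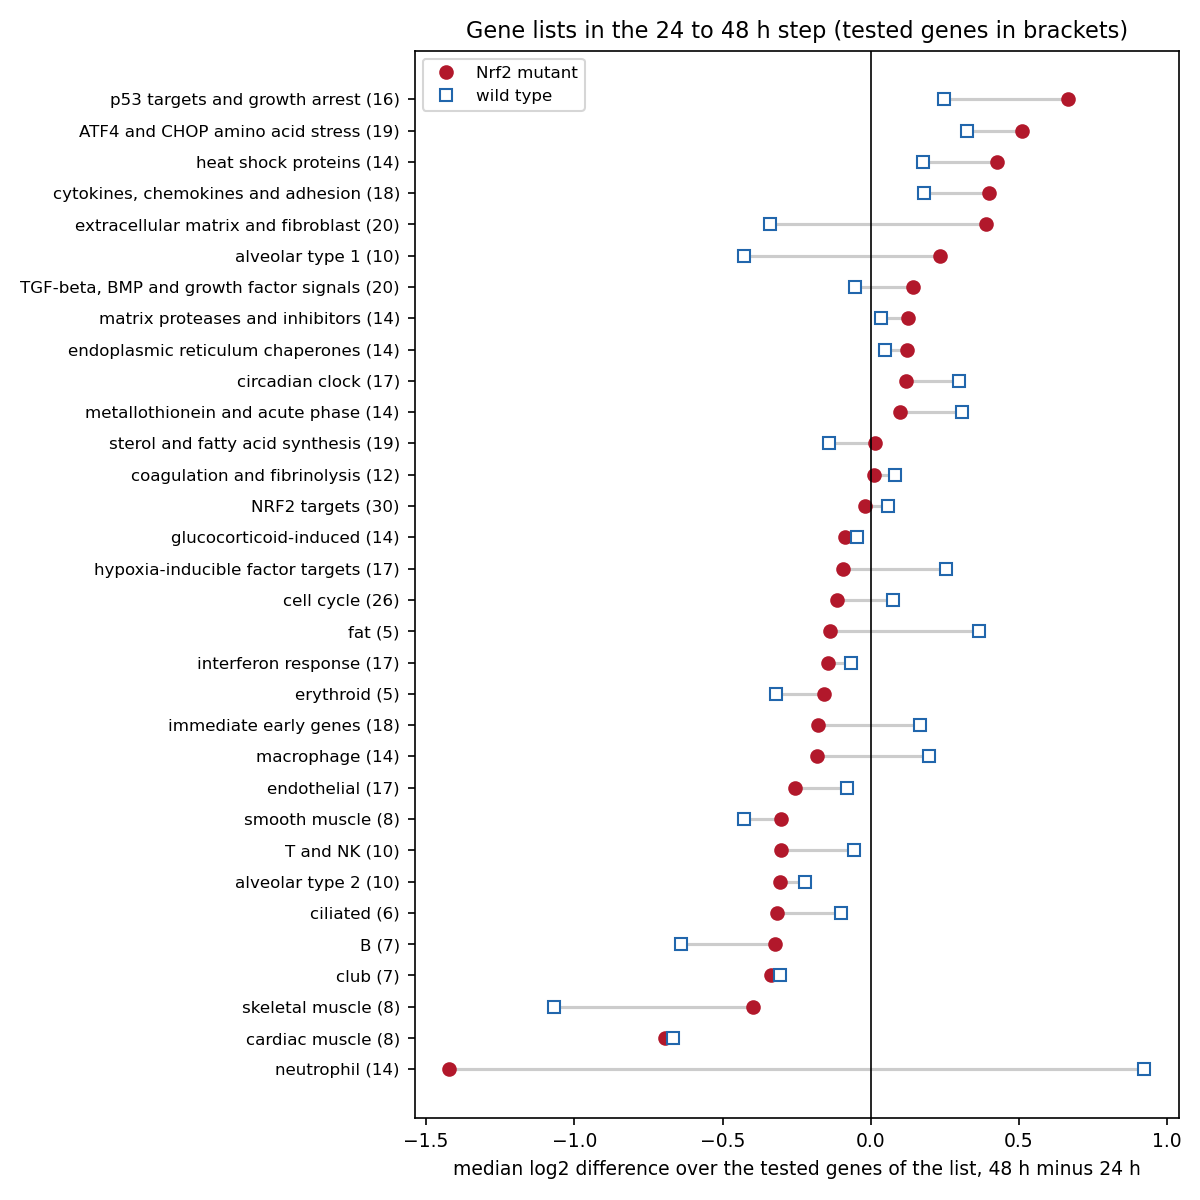
Median log2 difference, 48 h minus 24 h, over the tested genes of each of 32 lists, with mutant as red circles and wild type as open blue squares and the number of tested genes in brackets. The neutrophil list has the lowest mutant median, -1.42, with wild type at 0.92, and p53 targets the highest, 0.67.

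The step differed between the genotypes at 56 probe sets (0.209%), 9 with the mutant difference above that of wild type and 47 below it. In 47 of the 56 the mutant value was negative and the wild type value positive, and 33 were also called in the mutant step. Counted as genes, 38 were lower (0.283%) and 6 higher (0.0447%). On array type A wild type at 24 h is 1 array, assumed to vary like the others. Without that array the test has only types B and C and 6 probe sets, and without 1 of the other compared replicates it called 18 to 53, with 18 and 21 without 1a and 1b of the mutant at 48 h, 25 and 32 without 1a and 1b of the mutant at 24 h, and 20 and 19 without 1a and 1b of wild type at 48 h. Of the neutrophil markers, 8 of 14 were lower in this comparison. S100a8 in wild type lung had 9823 and 9647 at 48 h, against 4565 at 24 h, so that the wild type difference was 1.08 where the mutant one was -2.73, and their difference was -3.81 ± 0.23 (limma, adjusted p = 0.000228). Cd177, measured on 2 arrays in each group, had 1921 and 2294 in wild type at 48 h, against 776 and 545 at 24 h, and differed between the genotypes by -2.82 ± 0.35 (limma, adjusted p = 0.00803). Il1r2 differed by -3.46 ± 0.29 (limma, adjusted p = 0.0015) and was also called in wild type alone, where it was higher at 48 h.

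Outside the neutrophil list, Fosl2 differed by -1.79 ± 0.22 (limma, adjusted p = 0.00803), with 7485 and 7244 in wild type at 48 h, against 4076 and 3771 at 24 h. The clock list had 3 of 17 tested genes lower in this comparison, where 0.283% of all genes were. These were Per3, at -1.65 ± 0.26 (limma, adjusted p = 0.0208), Nr1d2, which encodes the nuclear receptor REV-ERB beta, at -1.56 (limma, adjusted p = 0.043), and Hlf, at -1.51 (limma, adjusted p = 0.0478). Matrix genes were among the few on the other side. Spon2, spondin 2, had 1419 and 1814 in the mutant at 48 h, against 724 and 725 at 24 h, and 136 and 161 in wild type at 48 h, against 1374 and 791 at 24 h, a difference between the genotypes of 3.23 ± 0.43 (limma, adjusted p = 0.0105). Its wild type arrays at 48 h were below the filter value, so that the size of this difference depends on the added constant, and its other probe set gave -1.08 (limma, adjusted p = 0.629). Adamts17, a secreted metalloprotease, had 1523 and 1308 in the mutant at 48 h, against 489 and 556 at 24 h, and 627 and 698 in wild type at 48 h, against 1106 and 930 at 24 h, a difference between the genotypes of 1.78 ± 0.24 (limma, adjusted p = 0.00887). No member of the p53, ATF4 or heat shock lists was called here. Zmat3 had a mutant difference of 1.15 and a wild type difference of 1.19 (limma, adjusted p = 0.982 for the difference between them), while Hspe1 had 1.40 in the mutant and -0.20 in wild type (limma, adjusted p = 0.12).

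**Figure D5:**
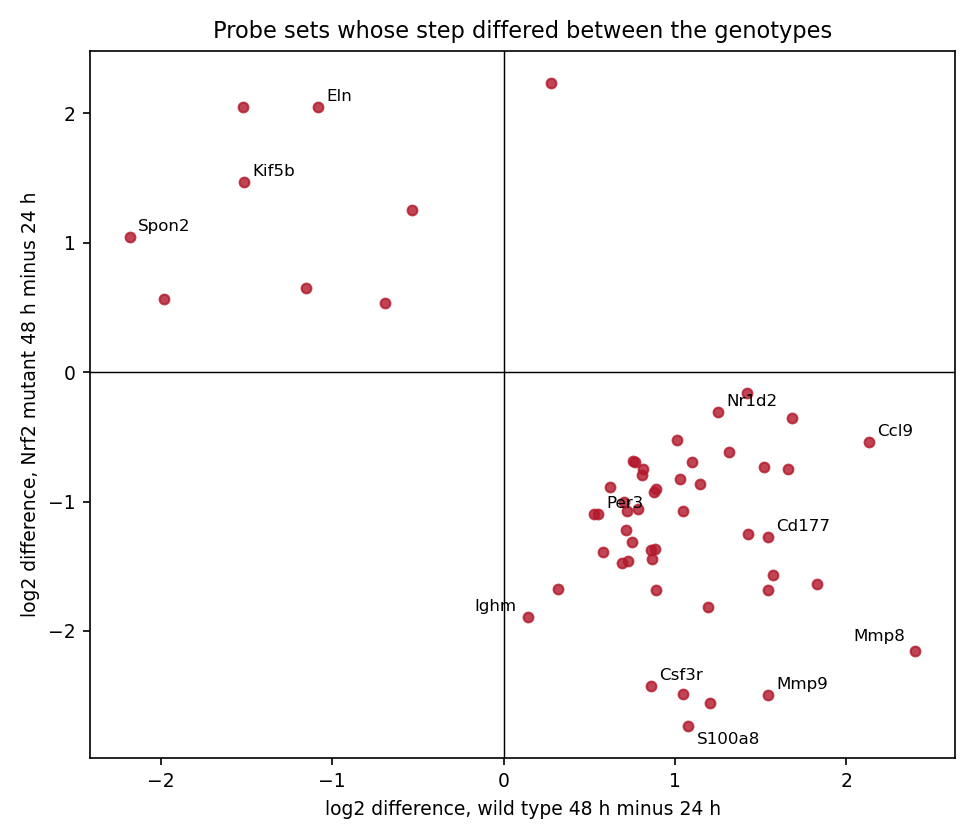
Each point is 1 of the 56 probe sets whose step differed between the genotypes, with the log2 difference of the mutant, 48 h minus 24 h, on the y axis and that of wild type on the x axis. Most points lie at the lower right, where the mutant was lower and wild type higher at 48 h, with S100a8 lowest and Mmp8 farthest right.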

How the data were processed

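The authors deposited a linear intensity for each probe set of an array. Its 2%-trimmed mean, computed from the files, lay between 800.17 and 800.52 on every array. The tool they used is not given in the sources used here. Control probe sets were removed, the 25th percentile of the array type was added, and log2 was taken. Probe sets were tested if 2 or more arrays of their type exceeded its 40th percentile: 8515 on A, 8952 on B and 9366 on C, of which 21868 carry 1 gene symbol in the platform annotation, 546 several and 4419 none. The scripts ran in R 4.3.3 with limma 3.58.1, with 1 fit per array type over all its arrays (14 on A, 16 on B and C), 1 mean per genotype and time, and two-sided p-values adjusted by Benjamini-Hochberg over all 3 types. The steps were tested on simulated data. Deviations of arrays with the same replicate label correlated at -0.044 (A), 0.199 (B) and 0.00654 (C), and no label states a shared animal or batch, so the main design has no block.

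The members, the 32 gene lists and the tests were chosen with earlier results of these data known. By rule, the genes to name were Nfe2l2, the 15 largest called rises and the 15 largest called falls with 1 symbol and without overlap, the 6 largest genotype differences of each sign and 11 check genes. They also included up to 4 called members of each list by p, or the 2 of smallest p where none was called. Those 2 are not printed for the interferon, sterol and fatty acid synthesis, type 1, ciliated, fat, T and NK and erythroid lists. For some other lists without a call only part is printed. Other list members were named after their values were seen. List medians and unadjusted counts use the brightest probe set of a gene. The alternatives were a floor instead of the added constant, quantile normalization, the filter dropped or raised to the 60th percentile, the compared groups only, the mutant 0 h arrays left out, a replicate block, limma's eBayes with its trend and robust options, adjustment within each array type, and each replicate left out. Leaving out replicates of the groups not compared was added after seeing the data. Promoter sequences are from RefSeq (GRCm38.p6).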

Additional observations from a re-analysis of the deposited data

Results flagged for a closer look

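The size of the step between 24 h and 48 h of oxygen differed between Nrf2 mutant and wild type lung, by the limma test of that difference, at 56 probe sets. Among those with 1 symbol, the 6 largest on each side were named, and the values are mutant difference minus wild type difference on the log2 scale. The mutant was above wild type for Spon2 by 3.23, for Eln by 3.13, for Kif5b by 2.98, for Stk38l by 1.81, for Adamts17 by 1.78 and for Dmac2l by 1.23. Each was called on 1 probe set, which for Kif5b is 1 of 4. The other probe sets gave -1.08 for Spon2, 2.45 for Eln, -0.08 for Dmac2l and 0.03 and 0.83 for Stk38l, none of them called. Those of Kif5b gave -0.08, -0.46 and 0.25 and were not called either. Eln, Stk38l and Dmac2l had both a mutant 24 h mean (158, 188 and 265) and a wild type 48 h mean (124, 98.4 and 224) below the filter value, and Spon2 had a wild type 48 h mean of 148 below it. Mutant lung was below wild type for Mmp8 with -4.56, for Mmp9 with -4.04, for S100a8 with -3.81, for Csf3r with -3.76, for S100a9 with -3.53 and for Il1r2 with -3.46. Csf3r gave -3.29 on a second called probe set and -0.77 on its brightest, which was not called (limma, adjusted p = 0.455). The other probe set of Mmp9, on array type C, gave -0.92 and was not called (limma, adjusted p = 0.761). That of Il1r2 gave -3.14 and was called (limma, adjusted p = 0.043). For Mmp8, the mutant 48 h mean of 86.6 and the wild type 24 h array at 143 were below the filter value. Where a side lies below it, the size of the difference depends on the added constant and has no order among the others. The called values of the last 6 genes, and of Eln and Kif5b, are from array type A, where wild type at 24 h has 1 array. Whether that array accounts for the wild type side of these values was not tested.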

How the results depend on the processing

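The 59 probe sets named by the rule above and called in the mutant step kept their direction wherever a value could be had. That was in every alternative for 51 and in all but the stricter filter for 8. Of these 59, 4, of S100a8, S100a9 and Csf3r, were called in every alternative and without each mutant replicate. Called genes named after their values were seen, such as Cxcr2, Cd177 and Psat1, were not followed singly in the alternatives. Counts of called probe sets depended on the arrays in the fit. The mutant count of 173 was 133 to 235 in 8 of 9 alternatives, 7 on the compared arrays only, and 12 to 178 when 1 replicate was left out, with 12 to 22 without a mutant replicate of 48 h or 24 h, 96 without either wild type 48 h replicate and 113 without either wild type 0 h replicate. The wild type count of 17 was 10 without a filter, 36 with the stricter filter, 38 with trend and robust and 27 with adjustment within each array type. It was 0 on the compared arrays only, where limma gave 2592 at an unadjusted p below 0.05, and 0 to 11 when 1 wild type replicate was left out. The genotype difference of 56 was 91 with the stricter filter, 93 with trend and robust, 12 on the compared arrays only, and 6 to 53 when 1 replicate was left out, with 6 without wild type 24 h replicate 1b, which leaves array types B and C. With a replicate block the counts were 229 in the mutant, 9 in wild type and 77 for the genotype difference. The Gapdh 3' to 5' ratio was higher in 1b than in 1a in 8 of 8 groups on array type C, 4 of 8 on B and 1 of 6 on A, and its part in the block was not tested. Of the 12 genotype differences named by rule, all 12 kept their direction and 6 were called in all alternatives. Of these, 5 were also called without each replicate that could be left out, which for genes of array type A were 7 of 8, since wild type at 24 h has 1 array there.

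Among genes not called, with quantile normalization the sign of Hmox1 turned, to -0.023, and Scgb1a1 was at 0.00. When 1 mutant replicate was left out, differences with both signs were seen for Gpx2 (-0.069 to 0.071), Hmox1 (-0.21 to 0.23), Mt2 (-0.10 to 0.21), Hba-a1 (-1.80 to 0.61), Nqo1 (-0.23 to 0.26) and Nfe2l2 (-0.082 to 0.32). Signals below the filter value limit what can be said of 42 called probe sets. The causes of these changes were not tested.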

Other observations

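Groups in this paragraph were chosen after their values were seen and carry no test of the group. Among 40 tested immunoglobulin heavy, kappa and lambda chain probe sets of 25 genes, 11 fell in mutant lung at 48 h and 0 rose. Of all 26833 tested probe sets, 100 fell and 73 rose. Of the 40, 34 lay below 0, and the median difference was -0.62 in the mutant and -0.02 in wild type. Igha, the heavy chain of immunoglobulin A, had 4211 and 3790 at 48 h, against 9336 and 9108 at 24 h (limma, adjusted p = 0.0173), and the kappa segment Igkv6-23 had 8822 and 7646 at 48 h, against 15098 and 18492 at 24 h (limma, adjusted p = 0.0239). Partners of the heat shock proteins rose on 5 of 28 probe sets of 12 genes and fell on 0, beside the 73 rises among all 26833. They include Chordc1, a partner of HSP90, with 3767 and 3946 at 48 h, against 1750 and 1556 at 24 h (limma, adjusted p = 0.0173), and Ahsa2, related to the HSP90 ATPase activator, with 5265 and 6125 at 48 h, against 2394 and 2593 at 24 h (limma, adjusted p = 0.0179). St13, the HSP70-interacting protein, was called on 1 of its probe sets, with 2118 and 2684 at 48 h, against 1004 and 1003 at 24 h. The rise of Rps19 was not shared by most ribosomal protein genes, since 2 of 57 probe sets were called, the other being that of Rps4x, and the median was 0.03.

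Of myeloid genes outside the lists, the next 3 were chosen after their values were seen, and each fell in mutant lung. Csf2rb, the beta chain of receptors for GM-CSF and interleukins 3 and 5, had 1611 and 1793 at 48 h, against 4600 and 4216 at 24 h on array type B, and 4226 and 3970 in wild type at 48 h, against 2345 and 2435 at 24 h. The difference between the genotypes was -2.06 ± 0.23 (limma, adjusted p = 0.0038). Tlr13, an endosomal receptor for bacterial RNA, had 303 and 266 in the mutant at 48 h, against 716 and 677 at 24 h, and 913 and 818 in wild type at 48 h, against 453 and 512 at 24 h (limma, adjusted p = 0.00803 for the difference between the genotypes). Mxd1, a partner of MAX, fell on 1 of 2 probe sets, with 920 and 1008 in the mutant at 48 h, against 2230 and 2616 at 24 h, and both probe sets differed between the genotypes. These 3 genes were measured on 2 arrays in each group. Ccl9, a chemokine of myeloid cells, was not called in the mutant, with 1336 and 1330 at 48 h, against 1756 and 2225 at 24 h (limma, adjusted p = 0.415), while wild type had 4503 and 4730 at 48 h, against 992 on 1 array at 24 h (limma, adjusted p = 0.0253 for the difference between the genotypes). In wild type, the acute phase gene Saa3 was higher at 48 h by 2.19 (limma, adjusted p = 0.0151), and in the mutant its difference was 0.86 (limma, adjusted p = 0.107).

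The largest rise of mutant lung was that of a probe set on array type A with no gene name here. It had 2596 and 2446 at 48 h, against 125 and 156 at 24 h, below the filter value (limma, adjusted p = 3.2e-05), and it was called in wild type too, where the difference was 2.18. Another unnamed probe set, on array type B, had 3339 and 2818 at 48 h, against 647 and 559 at 24 h, a difference of 2.13, with 1.64 in wild type (limma, adjusted p = 0.0111 in wild type).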
